A study of Mus musculus with 6 samples.

Results

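Genes that release fatty acids from stored or circulating triglyceride were followed in inguinal white fat, the fat pad of the groin, of mice without Naa10 (Naa10-KO) and of wild-type (WT) mice. The set holds 10 genes chosen by symbol: Pnpla2, Lipe, Mgll, Abhd5, G0s2, Lpl, Angptl4, Gpihbp1, Lmf1 and Pnpla3. All 10 were measured, by 20 probe sets, among 18193 genes with 34945 probe sets, and each gene is represented by its probe set of highest mean over all arrays. The study measured RNA of 3 WT and 3 Naa10-KO male mice, 1 sample per array, on the Affymetrix Mouse Genome 430 2.0 array. Mice of both genotypes were 6 weeks old when they began 15 weeks on high-fat food (60% of calories from fat), and all of them spent 4 h at 4 °C before the fat was taken. No animal was kept warm or on ordinary chow, so the values compare genotypes in the cold on this diet and say nothing of what cold or diet did. The Naa10 protein acetylates the N-terminal ends of other proteins. The sources used here do not say how the knockout was made or in which cells, and the Naa10 transcript was not analysed here.

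Fat cells break stored triglyceride down in steps. Adipose triglyceride lipase (Pnpla2) removes the first fatty acid, hormone-sensitive lipase (Lipe) acts mainly on diglyceride, and monoglyceride lipase (Mgll) releases the last fatty acid and glycerol, while in the cold noradrenaline from sympathetic nerves speeds this through cAMP. Fat also takes up fatty acids from blood: lipoprotein lipase (Lpl), made by adipocytes and muscle, matures in the endoplasmic reticulum, is carried to the capillary lumen and is inhibited by angiopoietin-like proteins. Much of this control acts on the proteins, which arrays do not measure.

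Values are log2 signals as the authors deposited them. Differences are Naa10-KO minus WT with limma's standard error (SE) and 95% interval, and adjusted p-values are limma's with Benjamini-Hochberg adjustment over all 18193 genes, with a threshold of 0.05. The median of all values, 5.86, marks low signal. White adipocyte markers were high in both genotypes, with means over the 9 measured of 12 between 13.36 and 13.62 on WT arrays and between 13.36 and 13.54 on Naa10-KO arrays, and adiponectin (Adipoq) between 15.46 and 15.81 on all 6. Of these 9, 5 had a higher mean in Naa10-KO, and 1, Cidec (difference -0.33), was lower on every Naa10-KO array. Skeletal muscle markers (20 of 20 measured) averaged 5.29, 5.76 and 8.30 on the WT arrays in replicate order and 11.08 to 11.40 on Naa10-KO arrays, with 18 of 20 higher on every Naa10-KO array. Brown and beige markers (11 of 12 measured) had means of 7.03 to 7.40 on WT arrays and of 8.10 to 8.59 on Naa10-KO arrays. Of these 11, 7 had a higher mean in Naa10-KO, and 4 were higher on every Naa10-KO array. Those 4 were Ucp1 (difference 6.17), Cidea (2.10), Cox7a1 (2.00) and Cox8b (1.17), and the other differences lay between -0.97 and 0.97. Muscle markers were higher on the same arrays. The part of muscle in these differences, those of Cox7a1 and Cox8b among them, was not tested. Control probe sets for Gapdh had a 3' minus 5' signal of 0.55 on Naa10-KO replicate 1 against -0.27 to 0.01 on the others. Muscle also expresses Lpl, Pnpla2, Lipe and Angptl4, and the part of these shifts in the values that follow was not tested.

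None of the 10 genes passed the threshold in limma, in either direction, where 0.0879% of all genes passed as higher and 0.0275% as lower. Means were lower in Naa10-KO for 7 of the 10 (median difference -0.14) against 48.6% of all genes (median 0.01). Mgll had the largest difference and was the only member of the 10 whose groups did not overlap. All 3 Naa10-KO arrays lay below all 3 WT arrays for this 1 gene of 10, against 8.14% of all genes. The same 1 gene had an unadjusted p under 0.05 in limma, against 4.35% of all genes lower at that mark. Estimates of the other 9 lay between -0.41 and 0.23, and each of their intervals held 0. These statements are for the probe set used for each gene. The second Lpl probe set differed by -1.23 without overlap and is described below. Over the alternative settings for genes, limma gave the other 9 genes an adjusted p of 0.436 to 0.998.

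**Figure D1:**
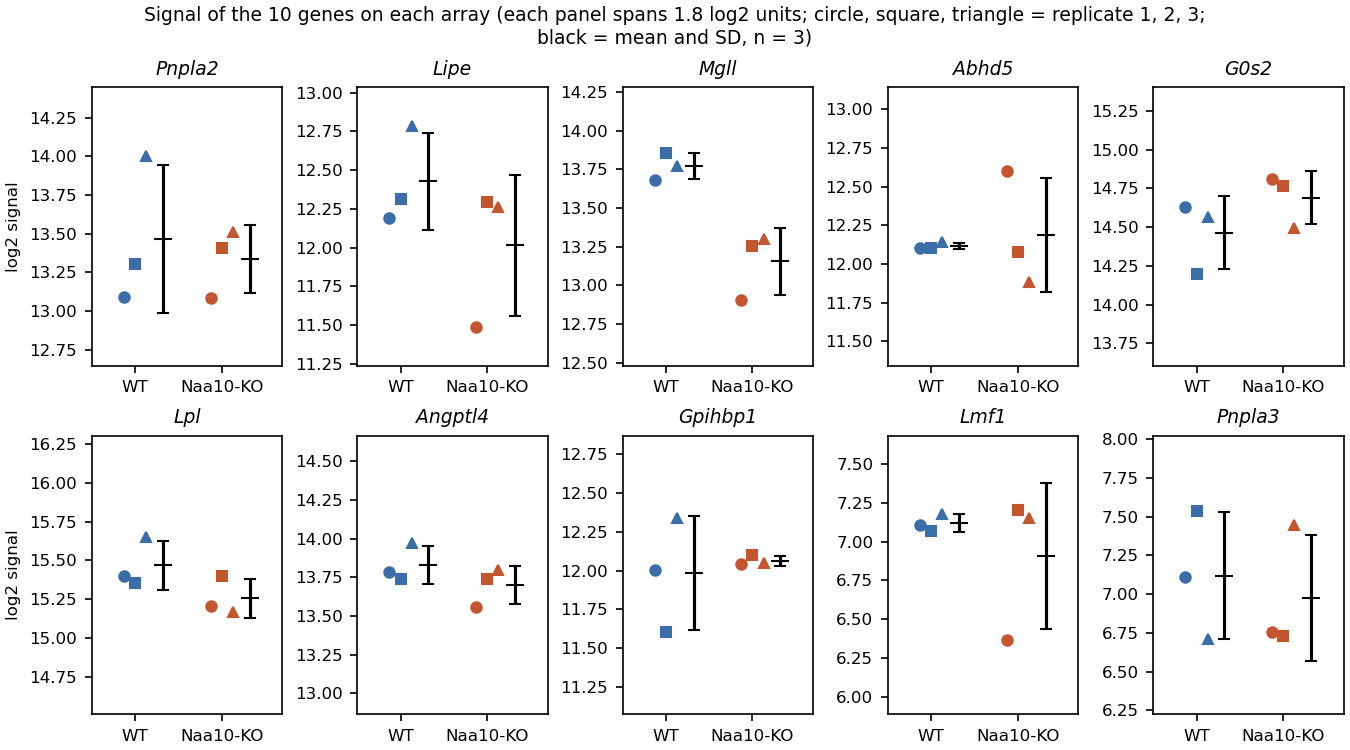
Log2 signal of each of the 10 genes on the 3 WT (blue) and 3 Naa10-KO (orange) arrays, with the mean and SD in black; every panel spans the same range of log2 units. Mgll is the panel without overlap between genotypes, WT replicate 3 (triangle) is the highest point for Pnpla2, Lipe, Lpl, Angptl4 and Gpihbp1, and Naa10-KO replicate 1 (circle) stands low for Lipe, Mgll and Lmf1 and high for Abhd5.

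The DNA before the start sites of Mgll, Pnpla2 and G0s2 is shown. Mgll was taken because it had the largest difference between genotypes at the probe sets used for the genes. Pnpla2 and its inhibitor G0s2 were taken because they open and restrain the first step of lipolysis. The sequences are from RefSeq on GRCm38.p6, written 5' to 3' on the gene's strand, and end at the base before the start of transcription, 250 bases in all for each gene. Capitals mark matches to 6 motifs searched on both strands: the cAMP response element TGACGTCA, the E-box CACGTG, the GC box GGGCGG, the TATA box TATAAA, the CCAAT box, and the PPAR repeat, AGGTCA followed after 1 spacer base by AGGTCA. A GC box on the other strand reads CCGCCC.
Mgll, chr6:88724162-88724411, plus strand: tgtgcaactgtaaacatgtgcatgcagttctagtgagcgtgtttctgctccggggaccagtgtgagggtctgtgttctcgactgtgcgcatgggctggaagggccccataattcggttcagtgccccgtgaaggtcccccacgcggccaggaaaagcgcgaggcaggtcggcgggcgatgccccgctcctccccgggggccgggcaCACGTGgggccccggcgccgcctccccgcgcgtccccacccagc
Pnpla2, chr7:141454938-141455187, plus strand: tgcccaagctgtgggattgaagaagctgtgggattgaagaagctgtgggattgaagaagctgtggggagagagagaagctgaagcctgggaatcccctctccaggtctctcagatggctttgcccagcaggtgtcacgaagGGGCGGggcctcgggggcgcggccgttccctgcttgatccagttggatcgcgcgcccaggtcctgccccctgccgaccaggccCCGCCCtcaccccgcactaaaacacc
G0s2, chr1:193273189-193273438, minus strand: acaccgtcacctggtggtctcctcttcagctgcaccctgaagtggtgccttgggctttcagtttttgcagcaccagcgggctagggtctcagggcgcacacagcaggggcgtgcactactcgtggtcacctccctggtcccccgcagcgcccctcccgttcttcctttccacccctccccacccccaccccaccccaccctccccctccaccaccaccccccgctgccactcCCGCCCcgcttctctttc
Mgll has 2 listed start sites, and the sequence shown is that before the first. It held an E-box beginning 44 bases before that start, while the window of the other start, inside the gene, held a GC box at 121 bases and no E-box. Pnpla2 held a GC box at 109 and another, on the other strand, at 26, and G0s2 held a GC box at 18 bases before the start. Of 32851 promoter windows of this length, 6.02% held the E-box and 32.7% the GC box. Windows were found for 7 of the 10 genes, without Lpl, Angptl4 and Gpihbp1. Among the others, Lipe also held an E-box, at 155 bases before 1 of its 2 listed start sites, and Pnpla3 alone held the cAMP response element, at 46 bases before its start, which 1.55% of windows held. Both listed starts of Lipe and the start of Pnpla3 lie inside the annotated genes. The PPAR repeat was in none of the 7 genes' windows and in 0.0335% of all windows. These are matches of letters, not measured binding sites.

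Pnpla2 (chromosome 7, 141455188 to 141460743 on GRCm38.p6) encodes the lipase that starts triglyceride breakdown. Its signal was 13.09, 13.30 and 14.01 on the WT arrays and 13.09, 13.41 and 13.51 on the Naa10-KO arrays (arrays are always given in the order of replicates 1 to 3). The genotypes overlapped, with the Naa10-KO arrays inside the span of the WT arrays but for replicate 1, which lay just under it. Means were 13.47 ± 0.48 in WT and 13.34 ± 0.22 in Naa10-KO (SD, n = 3), a difference of -0.13 (SE 0.29, 95% interval -0.86 to 0.60, limma adjusted p = 0.898). The direction turned without WT replicate 3, the array with the highest Pnpla2, to 0.14 (limma adjusted p = 0.837). That array also had the highest muscle markers of its group, and the part of muscle in its Pnpla2 signal was not tested. A second, dimmer probe set gave -0.35 (SE 0.21), also with overlap.

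Lipe (chromosome 7, 25379527 to 25398486) encodes hormone-sensitive lipase, which protein kinase A activates. It was at 12.19, 12.31 and 12.78 on the WT arrays and at 11.49, 12.29 and 12.26 on the Naa10-KO arrays. Naa10-KO replicate 1 lay below all others, while replicates 2 and 3 lay between the lowest WT array and the next. Means were 12.43 ± 0.31 and 12.01 ± 0.46 (SD, n = 3), a difference of -0.41 (SE 0.30, 95% interval -1.17 to 0.34, limma adjusted p = 0.690). Without Naa10-KO replicate 1 it was -0.15 (adjusted p = 0.906). The other Lipe probe set lay below the low-signal mark on all 6 arrays, at 2.39 to 4.66, and averaging it in turned the difference to 0.37 (adjusted p = 0.817).

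Mgll (chromosome 6, 88724412 to 88828360) encodes monoglyceride lipase, which also breaks down the endocannabinoid 2-arachidonoylglycerol. Its signal was 13.68, 13.85 and 13.77 on the WT arrays and 12.91, 13.26 and 13.30 on the Naa10-KO arrays. Every Naa10-KO array was below every WT array, and replicate 1 was the lowest. Means were 13.77 ± 0.08 and 13.16 ± 0.22 (SD, n = 3), a difference of -0.61 (SE 0.17, 95% interval -1.03 to -0.19), or 65.3% of the WT signal with an interval of 48.8% to 87.4%. This did not pass over all genes (limma adjusted p = 0.462). In limma with trend and robust options it did (adjusted p = 0.0475), where 35 of all 18193 genes passed as lower. Over all alternatives the adjusted p of Mgll ranged from 0.0475 to 0.738. Without Naa10-KO replicate 1 the difference was -0.49 (adjusted p = 0.663).

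The array carries 4 Mgll probe sets, and all 4 showed the same order of genotypes. At the 3 not used for the gene, the differences were -0.68 (SE 0.26), -1.02 (SE 0.39) and -0.61 (SE 0.22), each with all Naa10-KO arrays below all WT arrays. The probe set at -1.02 was at 12.41, 12.64 and 12.84 on the WT arrays and at 10.82, 11.92 and 12.09 on the Naa10-KO arrays, so that replicate 1 set much of its size. Tested over all 34945 probe sets, none of the 4 passed (limma adjusted p between 0.554 and 0.599). With trend and robust options in that fit, none of the 4 passed either (limma adjusted p between 0.0547 and 0.380). Probe sets of 1 gene measure the same RNA on the same arrays and are not replicates. In whole tissue, fewer cells that express a gene and less of its RNA per cell cannot be told apart.

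Abhd5 and G0s2 set the activity of Pnpla2 at the lipid droplet, Abhd5 (CGI-58) as its coactivator and G0s2 as its inhibitor. Abhd5 (chromosome 9, 122351616 to 122381524) was at 12.10, 12.11 and 12.14 on the WT arrays and at 12.60, 12.08 and 11.88 on the Naa10-KO arrays. The WT arrays lay within a narrow span, whereas Naa10-KO replicate 1 lay above it and replicates 2 and 3 below it. The difference was 0.07 (SE 0.22, 95% interval -0.48 to 0.62, limma adjusted p = 0.930), and it turned to -0.14 without Naa10-KO replicate 1 (adjusted p = 0.868). A second Abhd5 probe set gave 0.09 (SE 0.21) with the same array highest, and the remaining probe set lay below the low-signal mark on all arrays.

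G0s2 (chromosome 1, 193272160 to 193273188) was at 14.63, 14.20 and 14.57 on the WT arrays and at 14.81, 14.77 and 14.49 on the Naa10-KO arrays. Naa10-KO replicates 1 and 2 were the highest of the 6, and replicate 3 lay among the WT arrays. The difference of 0.23 (SE 0.19, 95% interval -0.25 to 0.70, limma adjusted p = 0.725) was positive with each array left out in turn, between 0.09 and 0.32.

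The change of G0s2 relative to Pnpla2 was followed array by array, as the difference of their log2 signals minus its WT mean. It was 0.54, -0.10 and -0.44 on the WT arrays and 0.72, 0.36 and -0.02 on the Naa10-KO arrays. WT replicate 1 lay above Naa10-KO replicates 2 and 3, so the genotypes overlapped. For Abhd5 relative to Pnpla2 the Naa10-KO values were 0.86, 0.02 and -0.28, against 0.36, 0.16 and -0.51 in WT. The spread within genotypes (SD 0.46 in WT and 0.59 in Naa10-KO) exceeded the mean shift of 0.20.

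Pnpla3 (chromosome 15, 84167776 to 84189521), a relative of Pnpla2 that binds Abhd5 and follows feeding more than fasting, had signals nearer the low-signal mark. It was at 7.11, 7.54 and 6.71 on the WT arrays and at 6.76, 6.73 and 7.45 on the Naa10-KO arrays. The genotypes overlapped almost wholly, with a difference of -0.14 (SE 0.31, 95% interval -0.93 to 0.64, limma adjusted p = 0.896). Without WT replicate 2 it turned to 0.066 (adjusted p = 0.971).

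Lpl (chromosome 8, 68880555 to 68906932) encodes the lipase that frees fatty acids from circulating lipoproteins. Its brightest probe set was at 15.40, 15.35 and 15.65 on the WT arrays and at 15.21, 15.40 and 15.16 on the Naa10-KO arrays. Naa10-KO replicates 1 and 3 lay below the WT arrays, and replicate 2 lay among them. Means were 15.47 ± 0.16 and 15.26 ± 0.12 (SD, n = 3), a difference of -0.21 (SE 0.16, 95% interval -0.61 to 0.18, limma adjusted p = 0.693). Without WT replicate 3, the highest array, it was -0.12 (adjusted p = 0.815). After quantile normalization it was -0.36 (limma adjusted p = 0.519), so its size depended on the scaling of the arrays.

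The second Lpl probe set stood apart from the first. It was at 13.81, 14.29 and 13.74 on the WT arrays and at 12.48, 12.98 and 12.69 on the Naa10-KO arrays, with a wide gap between the genotypes. Its difference was -1.23 (SE 0.24, 95% interval -1.83 to -0.63), 42.6% of the WT signal. Tested over all probe sets it did not pass (limma adjusted p = 0.316). With trend and robust options it did (adjusted p = 0.00324), where 0.14% of all probe sets passed as lower. With each array left out in turn it lay between -1.36 and -1.06, and its adjusted p was 0.364 to 0.563. Over all 14 alternatives run for single probe sets, the adjusted p ranged from 0.00324 to 0.582.

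Within arrays, the first Lpl probe set minus the second, relative to its WT mean, was 0.07, -0.45 and 0.38 on the WT arrays and 1.20, 0.90 and 0.95 on the Naa10-KO arrays. The groups did not overlap for this 1 pair of 7 member pairs with both probe sets above the low-signal mark, against 15.4% of 7946 such pairs in all, so a share of 1 in 7 is near the background. Of all pairs, 1.42% differed by at least as much as the Lpl pair without overlap, a mark set by this pair after its values were seen and given as a description only. Which part of the transcript each detects was not analysed here. Averaging both gave -0.72 (SE 0.18, limma adjusted p = 0.440). Control probe sets for pyruvate carboxylase had a 3' minus 5' signal of 5.14 to 5.34 on WT arrays and of 6.52, 7.99 and 5.74 on Naa10-KO replicates 1 to 3. For β-actin the ranges, 1.59 to 1.85 and 1.42 to 2.07, overlapped. The part of RNA length or quality, or of the unlike brightness of the probe sets, in the Lpl result was not tested.

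**Figure D2:**
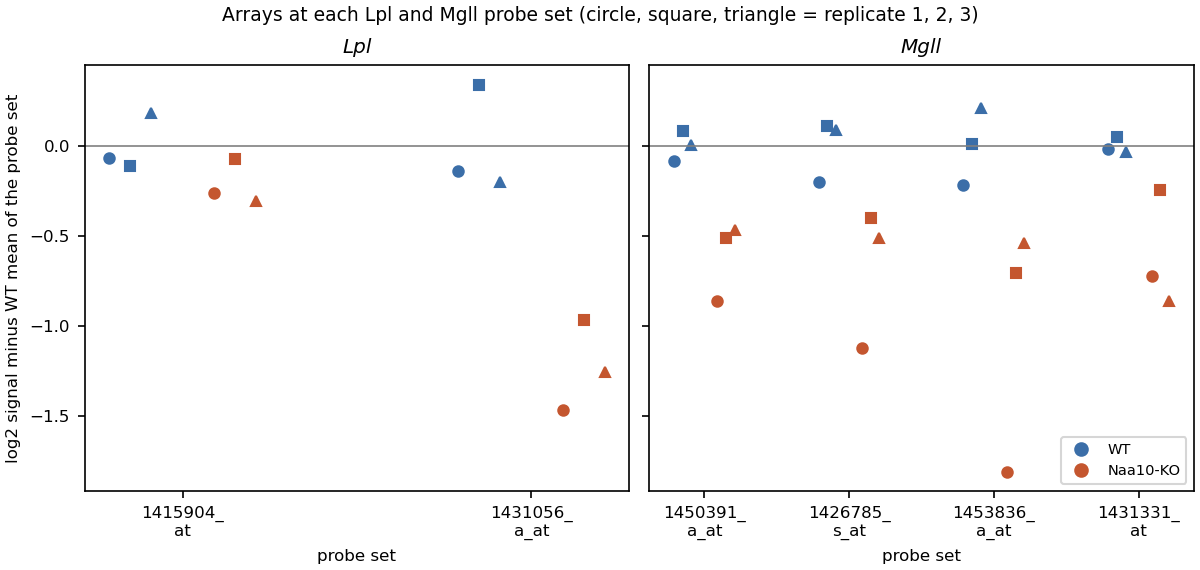
Log2 signal minus the WT mean of the same probe set (vertical axis) for the 2 Lpl and 4 Mgll probe sets, on the 3 WT (blue) and 3 Naa10-KO (orange) arrays. The genotypes overlap at the first Lpl probe set and are separate at the second and at all 4 of Mgll, where Naa10-KO replicate 1 (circle) is the lowest point at 3 of the 4.

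Angptl4 (chromosome 17, 33774900 to 33781575) encodes a fasting-induced inhibitor that unfolds Lpl. It was at 13.78, 13.74 and 13.97 on the WT arrays and at 13.56, 13.74 and 13.80 on the Naa10-KO arrays. Only Naa10-KO replicate 1 stood clearly below the WT arrays. The difference was -0.13 (SE 0.15, 95% interval -0.51 to 0.24, limma adjusted p = 0.788). It was -0.062 without WT replicate 3 and -0.064 without Naa10-KO replicate 1. This probe set ends in s_at, which marks probes shared by several transcripts. The other, dimmer one gave -0.64 (SE 0.28, adjusted p = 0.623 over all probe sets), with 7.65, 7.14 and 7.77 on the WT arrays and 6.62, 6.75 and 7.27 on the Naa10-KO arrays. Its genotypes overlapped through WT replicate 2 and Naa10-KO replicate 3.

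Gpihbp1 (chromosome 15, 75596630 to 75598213) is the capillary endothelial protein that carries Lpl to the vessel lumen. It was at 12.00, 11.60 and 12.34 on the WT arrays and at 12.04, 12.10 and 12.05 on the Naa10-KO arrays, which all lay inside the WT span. The difference was 0.08 (SE 0.22, 95% interval -0.48 to 0.63, limma adjusted p = 0.919), and without WT replicate 2 it turned to -0.11 (adjusted p = 0.899). Means of 12 endothelial markers were 8.09 to 8.22 on WT arrays and 8.14 to 8.27 on Naa10-KO arrays. The Gpihbp1 values and the endothelial means thus overlapped between genotypes.

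Lmf1 (chromosome 17, 25579174 to 25662831) encodes a chaperone of the endoplasmic reticulum that Lpl needs to become active. It was at 7.11, 7.07 and 7.18 on the WT arrays and at 6.37, 7.20 and 7.15 on the Naa10-KO arrays. All but Naa10-KO replicate 1 lay close together. The difference was -0.21 (SE 0.26, 95% interval -0.88 to 0.45, limma adjusted p = 0.812), and without that array it turned to 0.057 (adjusted p = 0.941).

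Relative to Lpl, Angptl4 shifted by a mean of 0.08 in Naa10-KO, with values of -0.01, -0.02 and 0.27 against 0.02, 0.02 and -0.04 in WT. Gpihbp1 relative to Lpl was 0.32, 0.19 and 0.37 on the Naa10-KO arrays against 0.09, -0.26 and 0.18 on the WT arrays, a mean shift of 0.29. All 3 Naa10-KO values lay above the WT values, but the lowest of them, 0.19, nearly met the highest WT value, 0.18. How often pairs of genes do not overlap was not computed. The comparison used the first Lpl probe set, is a description of 1 of 4 pairs viewed, and was not tested.

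**Figure D3:**
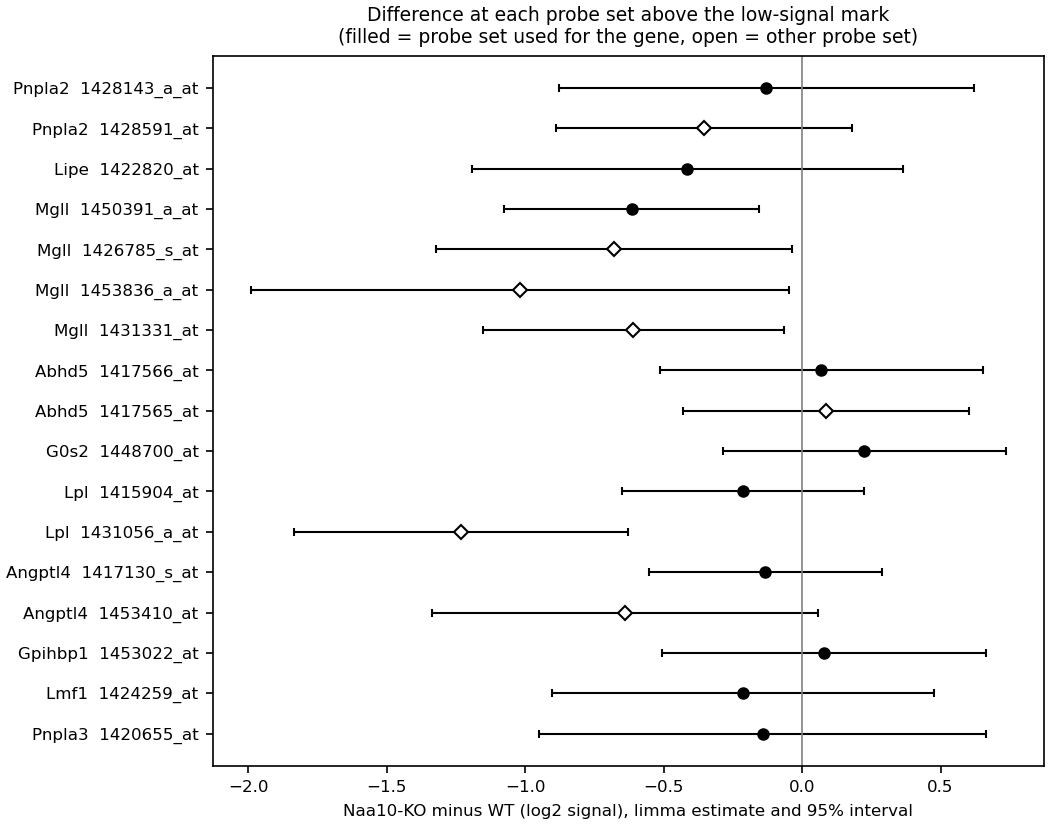
Naa10-KO minus WT difference in log2 signal (horizontal axis) with limma's 95% interval, from the fit over all probe sets, at the 17 of 20 probe sets that reached the low-signal mark on at least 1 array. Filled points are the probe sets used for the genes; the intervals of the 4 Mgll probe sets and of the second Lpl probe set (-1.83 to -0.63) lie below 0 before adjustment, and all others cross it.

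Across all 20 probe sets of the 10 genes, 0 passed over all probe sets in limma, where 0% passed overall. All Naa10-KO arrays lay below all WT arrays at 5, the 4 of Mgll and 1 of Lpl, against 8.31% of all probe sets, and the same 5 had an unadjusted p under 0.05, against 4.30%. At 0 of the 20 was every Naa10-KO array higher than every WT array, against 8.55%. Since 4 of the 5 belong to 1 gene, they amount to 2 genes.

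Some arrays were often at the ends of the range, not always at the same end. WT replicate 3 was the highest of the 6 arrays for 5 of the 10 genes, against 17.3% of all genes, and the lowest for 1 (Pnpla3), against 17.0%. Naa10-KO replicate 1 was the lowest for 5 of the 10, against 22.9% of all genes, and the highest for 2 (Abhd5 and G0s2), against 20.2%. WT replicate 3 is the WT array with the most muscle signal, and Naa10-KO replicate 1 has the largest 3' minus 5' signal of Gapdh, and the part of either in these values was not tested.

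Other genes of the pathway were read from 5 lists of 109 genes, of which 96 were measured. None passed in limma in either direction, with 4 higher and 5 lower at an unadjusted p under 0.05, against 4.85% and 4.35% of all genes. Every Naa10-KO array was higher than every WT array for 8 of the 96 and lower for 10, against 10% and 8.14% of all genes. Plin1 and the β-adrenergic receptors were not analysed here. The lists are described by counts and medians only.

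Among 11 measured lipid droplet proteins and lipolysis partners, 6 means were higher and 5 lower (median 0.08). Cidea, which fuses small lipid droplets in brown adipocytes, had WT and Naa10-KO means of 9.44 and 11.54 (difference 2.10, SE 0.44, limma adjusted p = 0.318). Plin5, a coat protein of oxidative cells that binds Pnpla2 and Abhd5, differed by 0.74 (SE 0.27). Its other probe set also differed by 0.74 (SE 0.29 in the fit over probe sets), with no overlap at either. Skeletal muscle also expresses Plin5, and muscle markers and some brown and beige markers were higher on the same arrays. The part of either in the Plin5 difference was not tested. Bscl2 (seipin, needed to form droplets) differed by -0.41, with its other probe set at -0.73, and Plin3, a coat protein of many cells, by -0.75.

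Among 23 measured genes of adrenergic and cAMP control, 13 means were higher and 10 lower (median 0.04). Pde4d, a phosphodiesterase that degrades cAMP, differed by 0.60 (SE 0.19, limma adjusted p = 0.501) and was higher on every Naa10-KO array, while its other probe set lay below the low-signal mark. Npr3, the clearance receptor that removes the lipolytic natriuretic peptides, differed by -0.43 (SE 0.14), with other probe sets at -0.92 and -0.70 and no overlap at any of the 3. Prkg1, the kinase those peptides act through, and Prkar2a, a regulatory subunit of protein kinase A, both differed by 0.36. The other Prkg1 probe set, at 0.51, lay below the low-signal mark. Prkar2a differed by 0.25 at its next brightest probe set, and by -0.31 and 0.81 at dim ones.

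Among 23 measured other hydrolases of neutral lipid, 9 means were higher and 14 lower (median -0.03). Lipf, gastric lipase, was at 11.86, 11.99 and 10.94 on the WT arrays and at 8.66, 10.06 and 10.08 on the Naa10-KO arrays (difference -2.00, SE 0.51, limma adjusted p = 0.427). Aadac, an esterase of the endoplasmic reticulum, differed by -3.21 (SE 0.98), but its Naa10-KO arrays all lay below the low-signal mark. Abhd12, a lysophospholipase that also takes monoglyceride, differed by -0.59 (SE 0.19), with its other probe set at -0.62. Ddhd2, a lipase known from neurons, differed by 0.43 (SE 0.18), with dim probe sets between -1.60 and 0.99.

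Among 24 measured genes of Lpl maturation, transport and lipoprotein uptake, 10 means were higher and 14 lower (median -0.21). Hspg2, the heparan sulfate proteoglycan perlecan, differed by -0.99 (SE 0.36, limma adjusted p = 0.530), with its other probe set at -0.19. Apoc2, the obligate cofactor of Lpl, had means of 8.34 and 7.83, WT first, with no overlap (difference -0.51, SE 0.21). Sdc1, a heparan sulfate syndecan, differed by -0.41, and by -0.45 without overlap at its next brightest probe set. Its dimmer probe sets, near or below the low-signal mark, were at -2.55 and 0.96. Angptl8, an insulin-induced partner of Angptl4, differed by -0.47 at low signal.

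Among 15 transcription factors of these genes, 10 means were higher and 5 lower (median 0.26), and none was free of overlap between genotypes. Mlxipl (ChREBP), which senses glucose, differed by 0.58 (SE 0.33, limma adjusted p = 0.629), and Srebf1 by 0.38 (SE 0.26). Irf4, a regulator of adipocyte lipolysis genes, differed by 0.66 (SE 0.47), with its other probe set at -0.71. Cebpb, which responds to cAMP, differed by 0.26 (SE 0.15), with its other probe set at 0.09.

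**Figure D4:**
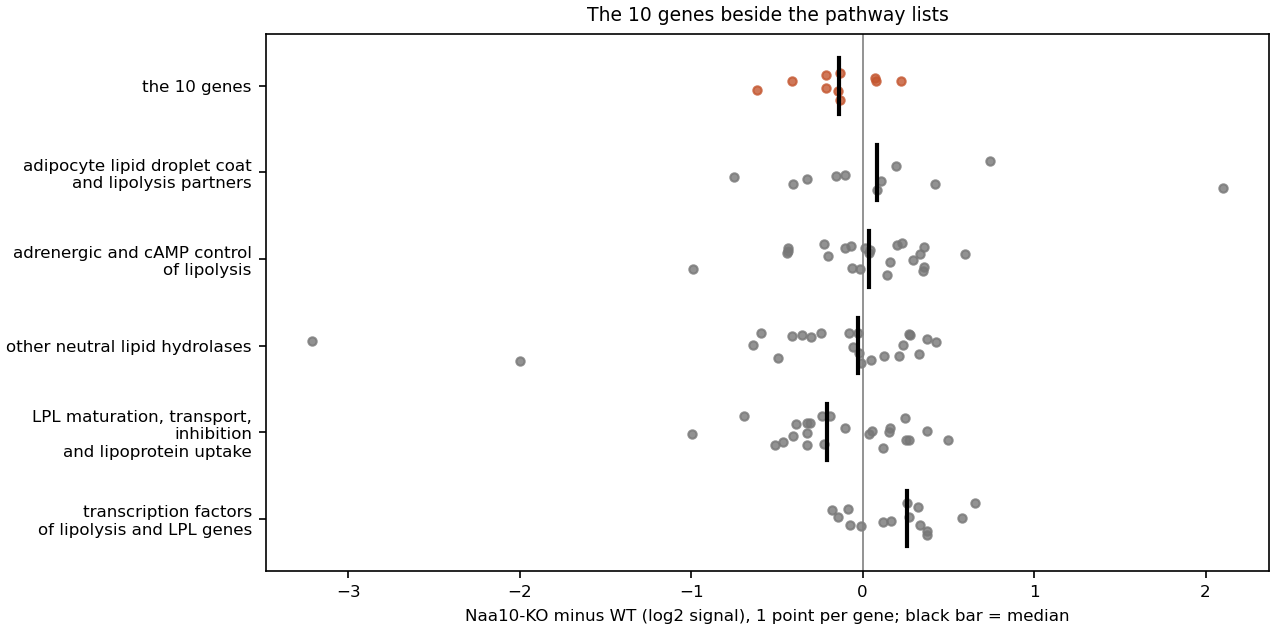
Naa10-KO minus WT difference in log2 signal (horizontal axis) of the 10 genes (orange) and of the measured genes of the 5 pathway lists (grey), 1 point per gene, with the median as a black bar. The 10 genes lie between -0.61 and 0.23; Cidea (2.10), Lipf (-2.00) and Aadac (-3.21) lie farthest out among the listed genes.

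Of 11358 other genes with a mean at or above the low-signal mark, those nearest in profile over the 6 arrays were found by the root mean square difference of mean-centred log2 signals. For Pnpla2 they were Hdgfl2 (0.04), Esyt1 (0.07) and Amhr2 (0.07). For Lpl they were Iqgap2 (0.03), Ints7 (0.04) and Eif2b2 (0.04). With 6 arrays and so many genes searched, close profiles can be found for patterns of small size. How close the nearest genes lie for other patterns was not computed, so these names are a description.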

How the data were processed

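The authors deposited 1 log2 signal per probe set and array, and these were used as given. Each array's linear mean, with 2% trimmed from both ends, was 500, so the arrays had been scaled to 1 level; the sources used here do not name the software. Probe sets were named through GEO's platform annotation of 2016: 34945 had 1 gene, 932 several and 9160 none, and the Entrez identifiers of 34741 matched RefSeq (GRCm38.p6), changing 0 symbols. Array medians lay between 5.78 and 5.96, and correlations between arrays between 0.903 and 0.917. No detection calls were used. The number of arrays limits the precision.

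Genotype was the only term in limma 3.58.1 (R 4.3.3; lmFit, eBayes, 2-sided), fitted over all 18193 genes and, for single probe sets, over all 34945. The steps were also run on simulated data with independent noise for each gene and array. Such data hold no shifts shared by many genes of an array, so they do not show how the steps handle those. The members, the pathway and marker lists and the rules were chosen with earlier results of these data known. The naming rule took all 10 members, from each pathway list the 4 genes of smallest unadjusted p, and the 3 genes nearest in profile to Pnpla2 and to Lpl. Alternatives were other normalizations, treatments of low values, choices of probe set, limma options, thresholds, the replicate number as a block and each array left out. Motif matches and probe set pairs were examined after the values were seen. The labels give 1 array per mouse and do not say whether mice shared a litter or day.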

Additional observations from a re-analysis of the deposited data

How the results depend on the processing

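Over 17 alternatives, the differences of Lpl, Angptl4, G0s2 and Mgll kept their sign. With 1 array left out, Lpl ranged from -0.28 to -0.12 and Angptl4 from -0.18 to -0.062, both smallest in size without WT replicate 3, G0s2 from 0.09 to 0.32, Mgll from -0.69 to -0.49 and Lipe from -0.55 to -0.15. Others turned, none past the threshold: Pnpla2 with 1 array left out ranged from -0.32 to 0.14, Abhd5 from -0.14 to 0.22, Gpihbp1 from -0.11 to 0.26, Lmf1 from -0.36 to 0.057 and Pnpla3 from -0.38 to 0.066. With the mean of all probe sets, which takes in dim ones, Lipe was 0.37 and Lmf1 0.38. With trend and robust options in the fit over genes, 1 member passed, Mgll (-0.61, adjusted p = 0.0475), and 1 pathway gene, Cidea (adjusted p = 0.0424). In the fit over probe sets with these options, the second Lpl probe set passed (limma adjusted p = 0.00324). No Mgll probe set did there (lowest limma adjusted p = 0.0547). No other alternative called a member or a pathway gene.

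Genes called higher over the whole array, 16 as reported, numbered 70 with the filter on low values, 104 with the floor, 102 with trend and robust options, 27 with array weights and 40 at an adjusted p of 0.10. Genes called lower, 5 as reported, numbered 3 after quantile normalization, 13 with the floor, 35 with trend and robust options and 10 at 0.10. Both counts were 0 with the mean of all probe sets (736 higher and 755 lower at an unadjusted p under 0.05), with all probe sets one by one (1361 and 1503) and in the unmoderated test (1062 and 799). With 1 array left out they ranged from 0 to 29 higher and from 0 to 1 lower, and the 29 and the 1 came without WT replicate 3. With the replicate number as a block both were 0 (649 and 627 at an unadjusted p under 0.05), and 0 members passed, with Mgll at -0.61 (adjusted p = 0.684). Deviations from the group means, over 11359 genes, had correlations of 0.01, -0.03 and -0.10 for same-numbered arrays. For arrays of different numbers they were -0.13 to 0.13. No label ties the numbers across genotypes, so the numbers were not taken as pairs. These correlations do not show whether mice shared a litter or day.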
